A study of Mus musculus with 48 samples.

Results

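The genes Agrp, Npy, Pomc and Cartpt were chosen by name, as the peptide genes of the arcuate feeding neurons, and were 4 of the 25229 gene symbols in the count table. All 4 passed the filter on low counts that left 16102 genes for testing in the arcuate nucleus. They were examined in 24 RNA-seq libraries of arcuate micropunches from a study of how clock genes in hepatocytes relate to daily feeding. All mice were male C57Bl6/J of 10 to 12 weeks with floxed alleles of Rev-erba (Nr1d1) and Rev-erbb (Nr1d2), kept in 12 h light and 12 h dark at 27 °C with normal chow always present. At 6 to 10 weeks of age they were injected in the tail vein with AAV8-TBG-EGFP (Control) or AAV8-TBG-Cre (HepDKO), and tissue was taken 2 to 4 weeks later at ZT4, ZT10, ZT16 or ZT22, where ZT (zeitgeber time) counts the hours from lights on. TBG is a hepatocyte promoter, so Cre was directed at the liver and the arcuate cells of both groups were meant to keep the receptors. Each library was a pool of punches from 3 mice per the treatment protocol, with 3 libraries for each of the 8 groups. The p-values below measure the spread between these pools.

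Arcuate neurons that make AgRP and NPY promote eating, and neighbouring neurons that make POMC restrain it. POMC is cut into melanocortins such as alpha-MSH, which activate the receptors MC3R and MC4R, while AgRP blocks those receptors and NPY acts on its own family of receptors. CART, the peptide of Cartpt, is made in many arcuate POMC neurons and also in other hypothalamic cells, and in mice it is counted among the peptides that reduce feeding. A micropunch mixes these neurons with glia and with neighbouring nuclei, so in these bulk samples fewer cells of a type and less RNA per cell cannot be told apart.

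The 4 genes lie on different chromosomes in GRCm38 (GENCODE M21). Npy is at chr6:49822710-49829507 on the plus strand, Pomc at chr12:3954951-3960642 on the plus strand, and Cartpt at chr13:99898489-99901091 on the minus strand. Agrp is annotated over chr8:105566698-105637393 on the minus strand, a span that its 3 transcripts share with 7 other genes, and some of its exon bases are shared with Ctcf on the plus strand and with Gm5914 on the minus strand. Whether counting used strand is not given in the sources used here, so some reads counted for Agrp could belong to those genes.

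Of the 4 genes, 3 (Npy, Pomc and Cartpt) had an entry in the RefSeq promoter table (GRCm38.p6), and Agrp had none. The 250 bases before the start of Npy and Pomc are shown because REV-ERB receptors bind the half-site AGGTCA (reverse TGACCT), and other clock factors bind the E-box CACGTG. Capitals mark AGGTCA and TATAAA. The Npy window is chr6:49822460-49822709 and the Pomc window chr12:3954695-3954944, both on the plus strand.
Npy: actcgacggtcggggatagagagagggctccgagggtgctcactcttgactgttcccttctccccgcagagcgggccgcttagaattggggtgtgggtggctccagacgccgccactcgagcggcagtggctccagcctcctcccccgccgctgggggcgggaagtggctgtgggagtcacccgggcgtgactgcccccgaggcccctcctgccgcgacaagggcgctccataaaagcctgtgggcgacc
Pomc: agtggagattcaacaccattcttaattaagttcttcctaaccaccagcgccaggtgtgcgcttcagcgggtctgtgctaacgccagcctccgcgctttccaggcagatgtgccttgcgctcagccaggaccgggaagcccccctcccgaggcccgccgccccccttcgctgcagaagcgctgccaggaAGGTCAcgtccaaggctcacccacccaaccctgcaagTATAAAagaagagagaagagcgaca
On both strands, AGGTCA was found once, in Pomc, 62 bases before the start, and 14.0% of the 32851 promoter windows of that length hold it. CACGTG was in none of the 3 windows and is in 6.02% of all windows. TATAAA, 25 bases before the start of Pomc, is in 12.4% of all windows. The cyclic AMP response element TGACGTCA was in Cartpt alone among the 3 and is in 1.55% of all windows. It lay 112 bases before the start of the RefSeq entry. The latter pair of motifs was chosen after the sequences were seen. The Cartpt stretch around the element, chr13:99900778-99900805 on the minus strand, lies in a window that overlaps 1 annotated Cartpt exon. The stretch is also inside the GENCODE span of Cartpt given above, whose start is further upstream.
Cartpt: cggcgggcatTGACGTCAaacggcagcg
None of the matches overlap each other, and a match describes letters only.

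The arcuate libraries held 15483922 to 20399718 counts. In CPM scaled by TMM, Nr1d1 had a median of 46.9 in Control (33.8 to 61.3, n = 12) and 48.2 in HepDKO (35.9 to 67.6, n = 12), and Nr1d2 had 124 (100.6 to 156) and 119 (98.1 to 142). These are counts over whole genes, none inside the deleted part alone, so they do not check the deletion. HepDKO ZT4 replicate 3 stood apart on the first principal component (12.7% of the variance), at -49.98, against -6.20 to 15.4 for the others. Its summed CPM was above all other libraries for ventromedial hypothalamus and pars tuberalis markers, and below all others for lateral hypothalamus, astrocyte and microglia markers. On the second component (9.25% of the variance) Control ZT22 replicate 1 was at -33.2, against -11.8 to 18.1 for the others. That library is 1 of the 3 Control libraries in every ZT22 difference below. HepDKO ZT10 replicate 3 held 1914 counts of Xist, an RNA of females, against 0 to 10 in the other libraries, although its mice are labelled male. All 9 markers of other arcuate neurons (such as Ghrh, Tac2 and Th) were detected, with a summed 178 to 245 CPM.

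All 4 peptide genes were well measured but unequal in spread. Agrp had 220 to 418 counts per library, Npy 568 to 1161, Pomc 783 to 2103 and Cartpt 1466 to 2381. Within groups, CPM varied with a coefficient of variation of 18.6% for Agrp, 17.1% for Npy, 25.8% for Pomc and 8.33% for Cartpt, where counting alone gives 4.89 to 6.74%, 2.93 to 4.20%, 2.18 to 3.57% and 2.05 to 2.61%. Among genes within 0.5 log2 CPM of its own level, the SD of Pomc around its group means (0.34 on the log2 scale) was at percentile 99.5. Npy (SD 0.23) was at percentile 97.7, Agrp (0.27) at 95.8 and Cartpt (0.12) at 74.2. Libraries of the same genotype and time thus differed more in Pomc, Npy and Agrp than in most genes of like level.

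Per kilobase of annotated exon, the mean level was 85.6 ± 8.16 CPM for Cartpt, 75.5 ± 11.7 for Npy, 54.6 ± 14.0 for Pomc and 17.1 ± 3.02 for Agrp (SD, n = 24). Cartpt, Npy, Pomc, Agrp was the order in 19 of the 24 libraries, and Npy was above Cartpt in 4. Over the length of each gene's shortest coding transcript, Pomc came first, at 164 ± 42.2 CPM per kilobase, so the order of the upper 3 depends on the transcript assumed. Agrp was the lowest in all 24 libraries by both lengths.

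Agrp, which encodes the melanocortin antagonist, had Control values of 15.8, 14.6 and 13.2 CPM at ZT4 and of 20.1, 16.5 and 15.5 CPM at ZT10. At ZT16 they were 18.9, 19.5 and 19.0 CPM, and at ZT22 14.6, 15.8 and 19.96 CPM. In Control the lowest single library was at ZT4 and the highest at ZT10. The mean of the 3 Control libraries was highest at ZT16 (19.1 CPM, against 17.4 CPM at ZT10). In HepDKO, Agrp was at 12.4, 13.6 and 21.8 CPM at ZT4 and at 14.3, 19.6 and 21.3 CPM at ZT10. At ZT16 it was at 18.9, 22.4 and 13.4 CPM, and at ZT22 at 17.4, 15.9 and 21.3 CPM. These HepDKO ranges overlapped at all times, and the high value at ZT4 was that of the library that stood apart.

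Npy, the gene of neuropeptide Y, was at 38.8, 41.0 and 35.9 CPM in Control at ZT4 and at 46.7, 43.6 and 42.0 CPM at ZT10. At ZT16 it was at 41.0, 54.9 and 37.7 CPM, and at ZT22 at 41.0, 45.4 and 41.3 CPM. One Control library, ZT16 replicate 2, was well above the rest. HepDKO libraries had 37.8, 34.2 and 60.6 CPM at ZT4 and 41.9, 47.6 and 49.99 CPM at ZT10. They had 38.3, 51.5 and 34.3 CPM at ZT16 and 35.5, 39.3 and 45.1 CPM at ZT22. The highest value of all 24 was HepDKO ZT4 replicate 3, and the genotypes overlapped at each time.

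Pomc, the melanocortin precursor, had the widest range. Control libraries had 65.3, 95.1 and 48.6 CPM at ZT4, and 70.2, 73.4 and 63.1 CPM at ZT10. They had 107.7, 60.1 and 75.5 CPM at ZT16, and 67.8, 104.8 and 64.7 CPM at ZT22. Single Control libraries at ZT4, ZT16 and ZT22 were thus far above the others of their group. HepDKO libraries had 65.1, 61.7 and 109.8 CPM at ZT4, and 65.4, 72.3 and 99.1 CPM at ZT10. They had 63.3, 73.5 and 73.3 CPM at ZT16, and 45.8, 48.5 and 51.8 CPM at ZT22. All 3 HepDKO libraries of ZT22 were below all 3 Control libraries of that time.

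Cartpt, the CART precursor, varied least. In Control it was at 106.3, 102.3 and 94.99 CPM at ZT4, and at 109.1, 105.3 and 106.5 CPM at ZT10. It was at 110.2, 120.8 and 105.4 CPM at ZT16, and at 116.4, 127.5 and 100.96 CPM at ZT22. In HepDKO it was at 103.4, 105.8 and 124.3 CPM at ZT4, and at 108.2, 115.0 and 132.9 CPM at ZT10. It was at 121.0, 107.0 and 112.3 CPM at ZT16, and at 103.9, 92.0 and 92.9 CPM at ZT22. At ZT22 the genotypes overlapped by 1 library, HepDKO at 103.9 CPM against Control at 100.96 CPM.

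**Figure D1:**
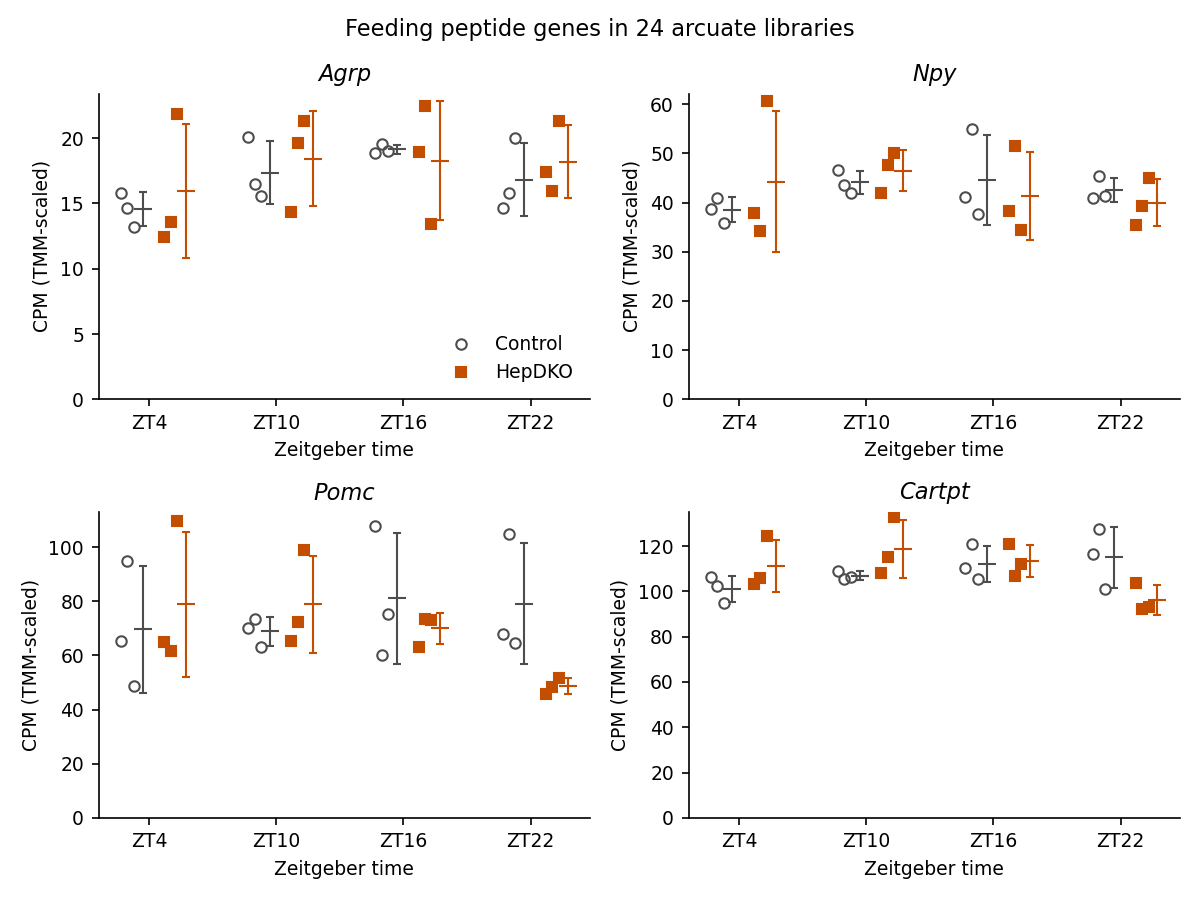
TMM-scaled CPM of Agrp, Npy, Pomc and Cartpt (vertical axes) at ZT4, ZT10, ZT16 and ZT22 in Control (open circles) and HepDKO (filled squares), with 1 point per library and a dash with bars for mean ± SD, n = 3. The groups overlap in each panel and time except Pomc at ZT22, where HepDKO lies at 45.8 to 51.8 CPM and Control at 64.7 to 104.8 CPM.

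Averaged over the 4 times, no peptide gene differed between HepDKO and Control past the threshold (adjusted p under 0.05). The log2 fold change was 0.06 ± 0.10 (SE) for Agrp, 0.02 ± 0.091 for Npy, -0.14 ± 0.14 for Pomc and 0.01 ± 0.043 for Cartpt, and edgeR's adjusted p-values ran from 0.775 to 0.969. The 95% interval was -0.14 to 0.27 for Agrp, -0.17 to 0.21 for Npy, -0.43 to 0.16 for Pomc and -0.08 to 0.10 for Cartpt. With 0 of 4 members called, the background was also 0 (0% of 16102 genes), with 1387 genes (8.61%) at an unadjusted p under 0.05, while DESeq2 called 23 genes and no peptide gene.

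At ZT22 the 2 anorexigenic genes had lower values in HepDKO, and neither difference passed the adjustment over all genes. Pomc was at 48.7 ± 3.02 CPM in HepDKO and 79.1 ± 22.3 CPM in Control (SD, n = 3 each), and Cartpt was at 96.3 ± 6.6001 and 115 ± 13.3 CPM. The log2 fold change was -0.70 (95% interval -1.30 to -0.11) for Pomc, with an edgeR adjusted p = 1.00 (unadjusted 0.0232). It was -0.26 (-0.44 to -0.08) for Cartpt, with an edgeR adjusted p = 1.00 (unadjusted 0.00689). The exact two-sided permutation test of 3 against 3 libraries, which cannot go below p = 0.1, gave p = 0.1 for Pomc and 0.2 for Cartpt. Agrp, at 0.11 (-0.31 to 0.54), and Npy, at -0.09 (-0.48 to 0.29), had intervals that span 0. edgeR called 0 of 4 members and 0% of all genes at ZT22, and DESeq2 called 0 genes. At an unadjusted p under 0.05, 599 genes (3.72%) were found, of which 356 (2.21% of all tested) were lower in HepDKO. Pomc was 1 of the 703 genes (4.37%) whose 3 HepDKO libraries all lay below the 3 Control libraries, while 4.15% of genes had HepDKO all higher. The Control library with the highest Pomc set part of its difference: without Control ZT22 replicate 2 the log2 fold change was -0.45 for Pomc (edgeR adjusted p = 1.00, unadjusted 0.145) and -0.18 for Cartpt (edgeR adjusted p = 1.00, unadjusted 0.0695).

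Of the 14 marker lists, 13 had a median log2 fold change below 0 at ZT22, and none of their genes was called by edgeR. The 5 ventromedial hypothalamus markers had a median log2 fold change of -0.33 (4 of 5 below 0) and the 9 markers of other arcuate neurons one of -0.13 (7 of 9 below 0), against -0.0025 over all genes. The pars tuberalis list had a median of -0.38 (4 of 5 below 0) and that of the paraventricular and supraoptic nuclei one of -0.33 (3 of 4). The suprachiasmatic list was at -0.20 (3 of 4), oligodendrocytes at -0.18 (5 of 5), astrocytes at -0.17 (4 of 4) and the lateral hypothalamus at -0.17 (2 of 3). The dorsomedial list, at 0.08, was the 1 above 0. Some list genes were near the floor, such as Tshb (median 1.08 CPM over the libraries), Chrna1 (1.18), Prok2 (0.64) and Nms (0.41). The summed level was 185 to 254 CPM in Control and 194 to 209 CPM in HepDKO for the ventromedial list. For the arcuate list it was 211 to 245 CPM in Control and 180 to 211 CPM in HepDKO. The median summed level at ZT22 was higher in HepDKO for pars tuberalis markers, 31.8 CPM against 29.2 CPM in Control. It was also higher for the paraventricular and supraoptic (157 against 154 CPM) and suprachiasmatic lists (23.9 against 22.7 CPM). It was lower for the dorsomedial (37.2 against 40.2 CPM), lateral (321 against 415), oligodendrocyte (3646 against 3698) and astrocyte lists (1056 against 1148). With the ventromedial score as a covariate, edgeR gave Pomc -0.43 ± 0.18 (SE) and Cartpt -0.20 ± 0.083. With the arcuate score they were -0.58 ± 0.30 and -0.22 ± 0.092, and the edgeR adjusted p was 0.999 or above in both fits. The part of punch placement in the difference was not tested beyond these fits.

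At ZT4, ZT10 and ZT16 no peptide gene differed past the threshold, and edgeR called 0% of genes at each of these times. The number with an unadjusted p under 0.05 was 1922 (11.9%) at ZT4, 377 (2.34%) at ZT10 and 440 (2.73%) at ZT16, and DESeq2 called 21, 0 and 0 genes. The ZT4 count was 779 without HepDKO ZT4 replicate 3 and 3446 without HepDKO ZT4 replicate 2. No peptide gene had groups that did not overlap at these times, where 6.09%, 5.54% and 4.79% of genes had HepDKO all lower and 6.76%, 5.71% and 4.72% all higher. At ZT4 all 4 values were above 0, with log2 fold changes of 0.13 for Agrp, 0.20 for Npy, 0.18 for Pomc and 0.14 for Cartpt. Without HepDKO ZT4 replicate 3 they were -0.16, -0.10, -0.14 and 0.05 in the same order. The first 3 thus changed sign without that library, and Pomc also did without Control ZT4 replicate 3 (-0.017). At ZT10 the values were 0.08, 0.08, 0.19 and 0.15, and without the library with Xist they were -0.03, 0.02, -0.002 and 0.06. At ZT16 they were -0.07, -0.11, -0.21 and 0.02.

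**Figure D2:**
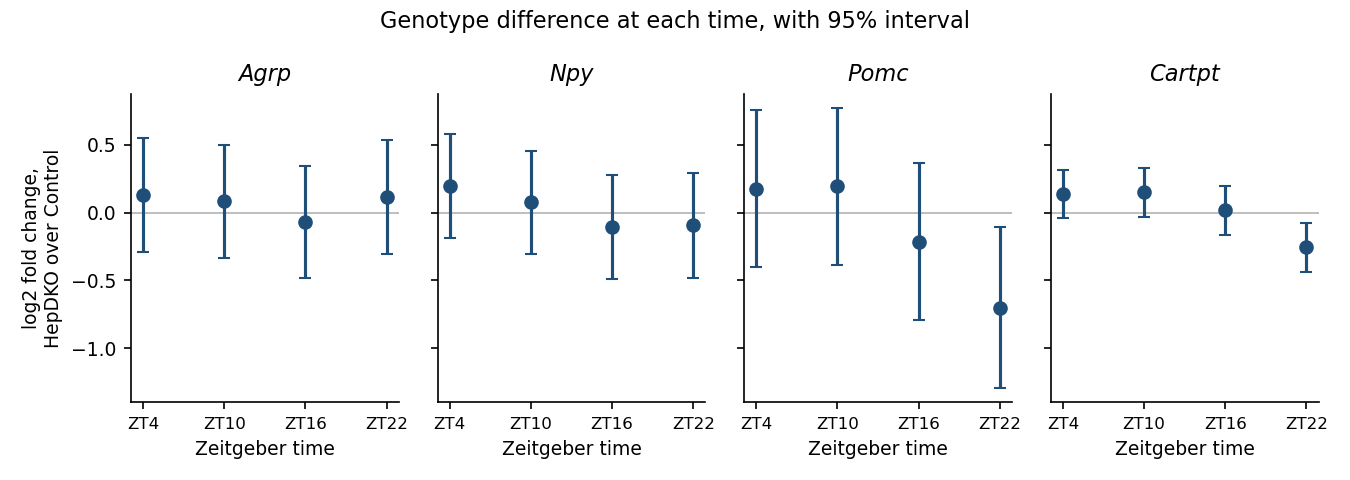
log2 fold change of HepDKO over Control (vertical axis) at each zeitgeber time for the 4 peptide genes, as edgeR estimates with 95% intervals from 3 libraries per group. The intervals of Pomc (-1.30 to -0.11) and Cartpt (-0.44 to -0.08) at ZT22 lie below 0 before adjustment over genes, and all other intervals span 0.

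Over the day, none of the peptide genes passed the tests of time, although other arcuate genes did. For light (ZT4, ZT10) against dark (ZT16, ZT22), edgeR called 0 of 4 members and 3.19% of all genes. The log2 differences, light minus dark, were -0.13 ± 0.10 (SE) for Agrp, 0.04 ± 0.091 for Npy, 0.11 ± 0.14 for Pomc and 0.005 ± 0.043 for Cartpt. The 24-h rhythm averaged over genotypes was called by edgeR for 0 of 4 members and 3.86% of genes. Its amplitude, from mean to peak on the log2 scale, was 0.15 for Agrp (peak at ZT15.6), 0.07 for Npy, 0.12 for Pomc and 0.07 for Cartpt. Npy was at 0.12 without HepDKO ZT4 replicate 3. Pomc was at 0.075 without HepDKO ZT10 replicate 3 and at 0.19 without Control ZT22 replicate 2. With the ventromedial score as a covariate Npy was at 0.038 and Pomc at 0.037. Agrp came nearest to a call when HepDKO ZT4 replicate 3 was left out, with an amplitude of 0.22 and an edgeR adjusted p of 0.0846.

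Within genotypes, the rhythm was called by edgeR for 0 of 4 members in Control, where 0.261% of genes passed, and for 0 of 4 in HepDKO, where 0.379% passed. In Control the amplitude was 0.20 for Agrp, 0.11 for Npy, 0.15 for Pomc and 0.09 for Cartpt. In HepDKO it was 0.10, 0.12, 0.36 and 0.15 in that order. Several of these values rest on 1 library. In Control, Npy was at 0.030 without ZT16 replicate 2, and Pomc was at 0.27 without ZT4 replicate 2. In HepDKO, Agrp was at 0.011 without ZT16 replicate 2 and at 0.24 without ZT4 replicate 3, and Npy was at 0.18 without ZT16 replicate 2. With a marker score as a covariate, the HepDKO amplitude was 0.032 for Npy (arcuate score) and 0.19 for Pomc (ventromedial score). Cartpt had the lowest unadjusted p in HepDKO (0.00705, edgeR adjusted p = 0.156), where 17.4% of genes were under 0.05 before adjustment. The fitted peak of Cartpt was at ZT10.4 in HepDKO against ZT18.3 in Control, and that of Pomc at ZT9.1 against ZT18.8. Without HepDKO ZT10 replicate 3, the library with Xist, the amplitude was 0.11 for Cartpt (edgeR unadjusted p = 0.0830) and 0.26 for Pomc. The difference of the rhythm between genotypes was tested directly and edgeR called 0 of 4 members and 0% of genes, with 382 genes (2.37%) at an unadjusted p under 0.05 and 1 gene called by DESeq2. Its size was 0.21 for Cartpt (unadjusted p = 0.00765, edgeR adjusted p = 0.999) and 0.49 for Pomc (unadjusted p = 0.0712). With the ventromedial score as a covariate the Pomc value was 0.30, and with the arcuate score the unadjusted edgeR p was 0.331 for Pomc and 0.111 for Cartpt. As the difference includes the ZT22 libraries, it is not separate from the ZT22 values above. With 4 times 6 h apart, a fitted peak time is only a coarse value.

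The orexigenic to anorexigenic balance was taken within each library as the mean log2 CPM of Agrp and Npy minus that of Pomc and Cartpt. Control libraries had -1.75, -2.01 and -1.64 at ZT4 and -1.51, -1.71 and -1.68 at ZT10. They had -1.96, -1.38 and -1.73 at ZT16 and -1.85, -2.10 and -1.49 at ZT22. The Control group means therefore lay close together, from -1.82 to -1.63. HepDKO libraries had -1.92, -1.90 and -1.68 at ZT4 and -1.77, -1.57 and -1.81 at ZT10. They had -1.70, -1.38 and -2.07 at ZT16 and -1.47, -1.41 and -1.16 at ZT22. At ZT22 the 3 HepDKO libraries were above the 3 Control libraries by a narrow gap, -1.47 against -1.49 for the nearest, and at the other times the genotypes overlapped. For comparison, 4.15% of single genes had HepDKO all higher at ZT22 and 4.37% all lower.

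The mean balance at ZT22 was -1.35 ± 0.16 in HepDKO and -1.82 ± 0.31 in Control (SD, n = 3 each), a difference of 0.47 or 1.38-fold. This was larger than the pooled SD within groups of 0.23, and it is a description with no test. The difference was 0.32 without Control ZT22 replicate 2. As the log2 of summed CPM the difference was 0.37 and the groups overlapped, and for Agrp against Pomc alone it was 0.78 with no overlap. At ZT4, ZT10 and ZT16 the genotype difference in balance was -0.04, -0.09 and -0.03, and averaged over times it was 0.08. Light minus dark was -0.10. These 5 values are each smaller than the pooled SD, which is the spread of single libraries and not the error of these differences. The mean over times was 0.038 without HepDKO ZT16 replicate 2 and 0.12 without HepDKO ZT16 replicate 3, and light minus dark was -0.060 and -0.15 without the same libraries. For Agrp against Pomc alone the values were 0.17 and -0.24, and as summed CPM light minus dark was -0.053.

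Within each side, the log2 difference of the 2 genes was also taken in each library. Pomc minus Cartpt on the log2 scale was -0.98 ± 0.18 in HepDKO and -0.57 ± 0.26 in Control at ZT22, with no overlap by a narrow gap (nearest values -0.84 and -0.78, pooled SD 0.30), beside the 4.37% of single genes with HepDKO all lower at that time. The Control values of Pomc minus Cartpt at ZT22 were -0.78, -0.28 (replicate 2) and -0.64. Agrp minus Npy was -1.13 ± 0.14 in HepDKO and -1.35 ± 0.26 in Control at ZT22. These overlapped, as did the genotypes at the other times. The ZT22 difference in balance thus came mainly with the lower Pomc values, with Agrp and Npy differing by 0.11 and -0.09.

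**Figure D3:**
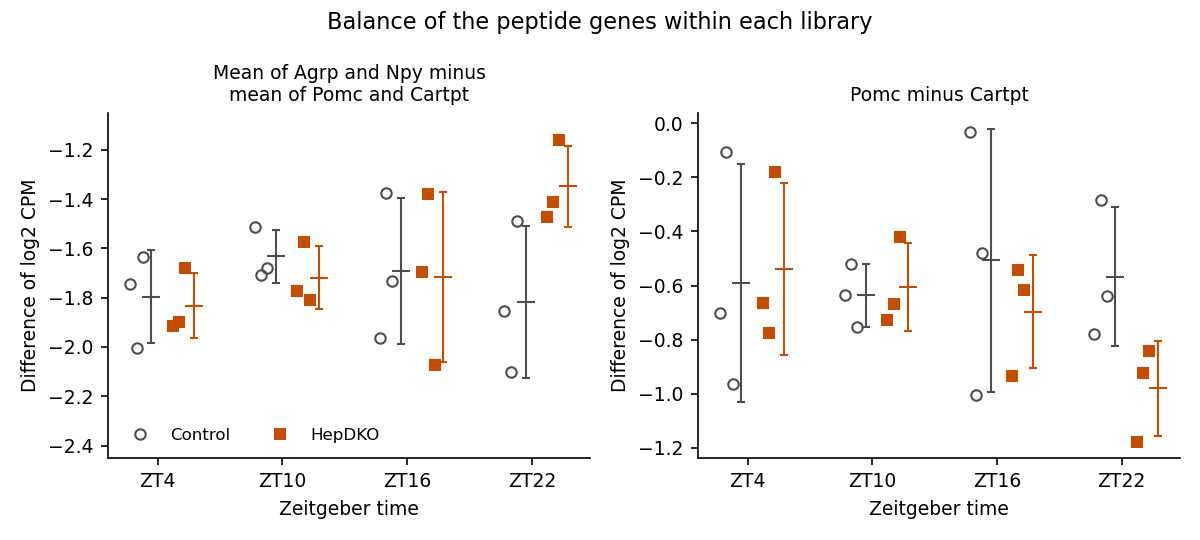
Balance of orexigenic to anorexigenic genes (left) and Pomc minus Cartpt (right), both as differences of log2 CPM within each library, by zeitgeber time for Control (open circles) and HepDKO (filled squares), with dashes and bars for mean ± SD, n = 3. At ZT22 the HepDKO libraries lie above Control on the left (means -1.35 and -1.82) and below Control on the right (-0.98 and -0.57).

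Among libraries of the same group, the orexigenic pair varied together. After each group's mean was removed, Agrp and Npy correlated at Pearson r = 0.75 (permutation p = 0.00152, adjusted over 6 pairs 0.00912) and Spearman rho = 0.72 (permutation p = 0.00142, adjusted 0.00852) over 24 libraries. Without the 2 libraries farthest from the median of Agrp, r was 0.63. The 12 Control libraries alone gave 0.23 and the 12 HepDKO libraries 0.89, and the difference between genotypes was not tested. Without HepDKO ZT4 replicate 3 alone it was 0.61, with an adjusted permutation p of 0.0528. By Pearson r of these deviations, the relation therefore did not pass the threshold without that library, though the adjusted p was near 0.05.

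All 6 pairs had r above 0, and with all libraries no other pair passed. Pomc and Cartpt had r = 0.48 and rho = 0.45 (permutation p = 0.0776 and 0.0894, adjusted 0.157 and 0.134), with r = 0.41 when the 2 farthest libraries were left out, and 0.34 in Control and 0.67 in HepDKO alone. The 4 pairs across the sides had r = 0.38 for Agrp and Pomc, 0.31 for Agrp and Cartpt, 0.42 for Npy and Pomc, and 0.44 for Npy and Cartpt, with adjusted permutation p from 0.157 to 0.277. Without HepDKO ZT4 replicate 3, r was 0.15 for Agrp and Pomc and 0.08 for Agrp and Cartpt. Agrp and Pomc, made by different neurons, were at -0.01 within Control and 0.70 within HepDKO. Npy and Pomc were at r = 0.16 without HepDKO ZT4 replicate 3 and at 0.68 (adjusted permutation p = 0.0024) without Control ZT16 replicate 2. Leaving out that Control library also took Pomc and Cartpt past the threshold (r = 0.65, adjusted permutation p = 0.0268). Npy and Cartpt passed without HepDKO ZT16 replicate 2 (r = 0.61, adjusted permutation p = 0.0375). With group means left in, so that differences between times and genotypes count too, 4 pairs passed over the 24 libraries. They were Agrp and Npy (r = 0.70, adjusted permutation p = 0.00078), Pomc and Cartpt (r = 0.65, 0.00156), Npy and Cartpt (r = 0.49, 0.0281) and Npy and Pomc (r = 0.46, 0.0362). By Spearman's rho, the first 3 of these passed (0.71, 0.54 and 0.46, adjusted permutation p = 0.00162, 0.021 and 0.0485) and Npy and Pomc did not (0.40, 0.0791). Without the 2 farthest libraries, r was 0.67, 0.65, 0.34 and 0.43 in the same order.

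**Figure D4:**
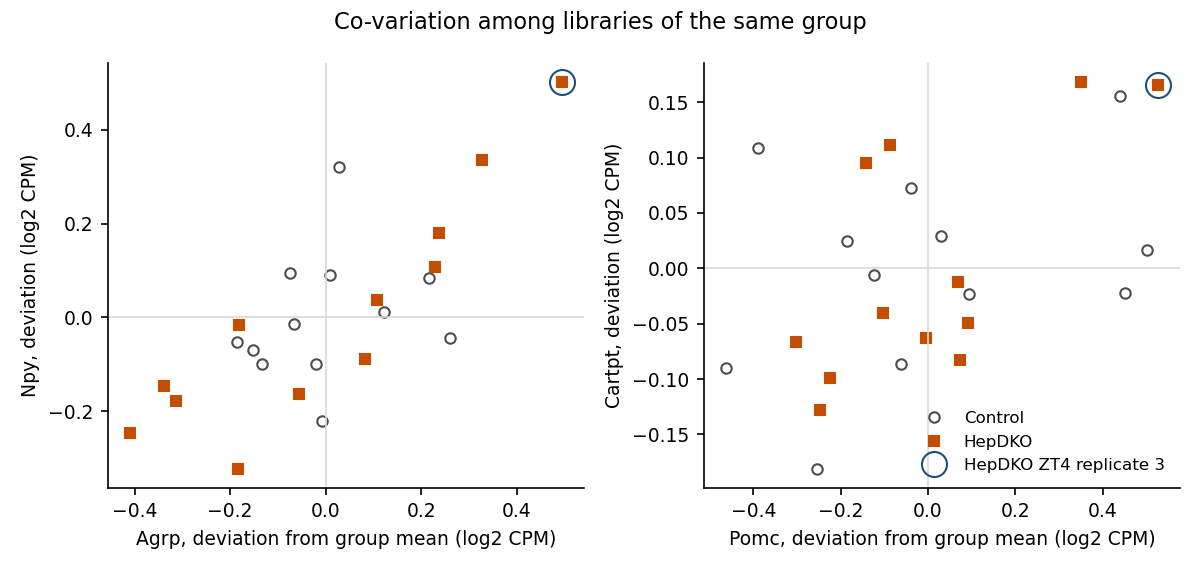
Deviation of each library from its group mean in log2 CPM, for Agrp (horizontal) against Npy (vertical) on the left and Pomc against Cartpt on the right, in 12 Control (open circles) and 12 HepDKO (filled squares) libraries. Pearson r is 0.75 on the left and 0.48 on the right, and the ringed library, HepDKO ZT4 replicate 3, is at or near the top of both axes.

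Among 14625 genes with a mean of at least 1 CPM, Npy ranked 15 in likeness to Agrp, and Agrp ranked 67 in likeness to Npy. Cartpt ranked 973 in likeness to Pomc, and Pomc ranked 435 in likeness to Cartpt. The genes nearest to Agrp by r of the deviations over 24 libraries were Uckl1os (0.83), Dnase1 (0.81), Cfp (0.80), Zan (0.79) and Tctn3 (0.79). For Npy they were Trank1 (0.85), Fbxl12 (0.85), Actn1 (0.85), Akap13 (0.84) and Cplane1 (0.83). For Pomc they were Tpp1 (0.87), Mgst1 (0.85), Dnaic2 (0.84), Trub1 (0.84) and Nmbr (0.84), and for Cartpt Pxdc1 (0.78), Tsen15 (0.77), Gm16845 (0.72), Hspb6 (0.71) and Zfp941 (0.71). These are descriptions of libraries that share their punch and depth. HepDKO ZT4 replicate 3 is among them, and the ranks were not taken without it.

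Region markers, which bear on where the punch fell, were compared with the peptide genes in 56 pairs of gene and marker list. No pair passed after adjustment. Pomc had the highest value, r = 0.76 and rho = 0.73 with the ventromedial hypothalamus list (permutation p = 0.00773 and 0.0051, adjusted 0.144 and 0.143). With the 2 libraries farthest in Pomc left out, r was 0.77, and the genotypes taken alone gave 0.83 (Control) and 0.65 (HepDKO). With the list of the paraventricular and supraoptic nuclei, Pomc had r = 0.68 and rho = 0.69 (permutation p = 0.00317 and 0.00197, adjusted 0.144 and 0.11), 0.87 within Control and 0.22 within HepDKO. That list had a summed 34.6 to 812 CPM over the libraries.

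For Agrp and Npy the highest of the 14 values was with the list of the median eminence and tanycytes, the cells that line the floor of the third ventricle. Agrp had r = 0.61 and rho = 0.60 with it (permutation p = 0.00634 and 0.0118, adjusted 0.144 and 0.165), and Npy r = 0.57 and rho = 0.59 (p = 0.0128 and 0.0103, adjusted 0.179 and 0.165). Leaving out the 2 farthest libraries gave r = 0.53 and 0.54. The Control libraries alone gave 0.25 and 0.38, and the HepDKO libraries 0.87 and 0.73. With the ventromedial list Agrp and Npy had r = 0.33 and 0.40. With the list of other arcuate neurons the 4 genes had r of 0.25 to 0.45. Whether Pomc and the orexigenic pair differ in these relations was not tested.

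**Figure D5:**
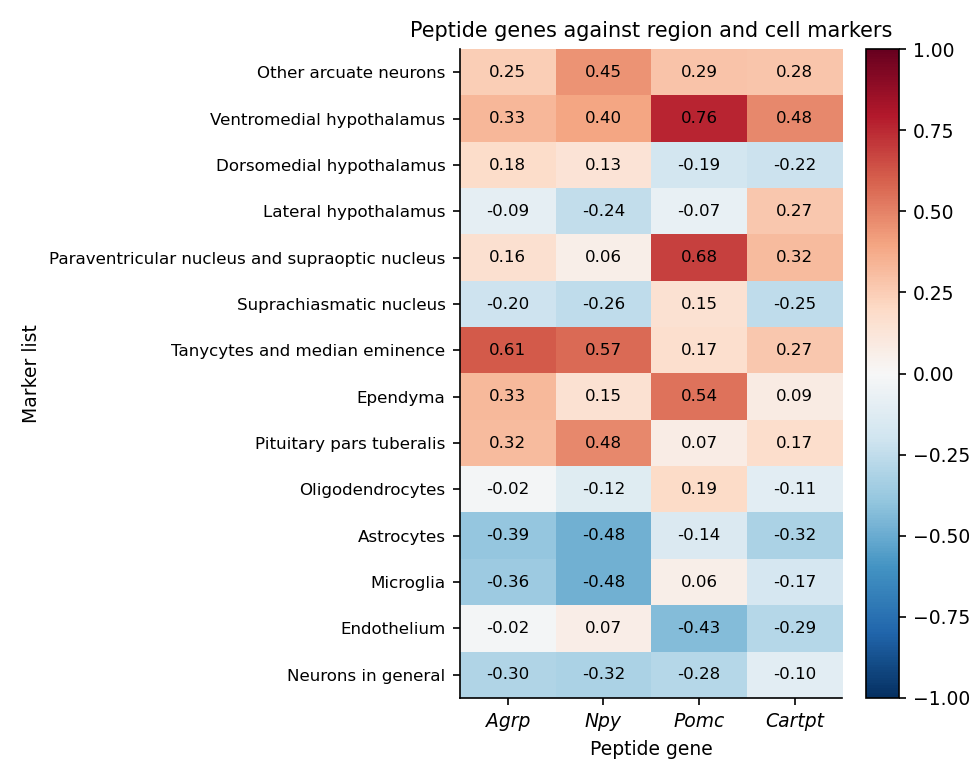
Pearson r over 24 libraries between the deviation of each peptide gene (columns) and that of each of 14 marker lists (rows) from the group means, with red for r above 0 and blue for r below 0. The highest values are Pomc with the ventromedial hypothalamus (0.76) and with the paraventricular and supraoptic nuclei (0.68), and Agrp with tanycytes and median eminence (0.61).

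Of 32 other genes of the feeding circuit, taken as 12 receptors, 7 prohormone processing genes, 9 transcription factors and 4 fast transmitter genes, all were tested. None was called by edgeR in the overall genotype effect, at any single time, in the rhythm within a genotype or in the difference of rhythms. At ZT22 the median log2 fold change of the 32 was -0.0068, against -0.0025 over all genes, and none had an unadjusted p under 0.05. The lowest p there was that of Ghsr, the ghrelin receptor (0.162). Averaged over times, 5 of the 32 had an unadjusted edgeR p under 0.05, against 8.61% of all genes, with Foxo1, a transcription factor downstream of insulin, the lowest (0.0163). Lepr, the leptin receptor, fell by 0.29 ± 0.083 (SE, log2) in light against dark (edgeR adjusted p = 0.0480), the 1 call of 32 (3.19% of all genes were called in that test), which held in 7 of the 24 fits that each left out 1 library (adjusted p from 0.0103 to 0.106). Pou3f2, a neuronal transcription factor, had a 24-h rhythm averaged over genotypes with an amplitude of 0.17 (edgeR adjusted p = 0.0309), also the 1 call of 32 (against 3.86% of all genes), which held in 17 of the 24 such fits. Neither count stands above the share of all genes.

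In the 24 left nodose ganglion libraries of the same study, which hold vagal sensory neurons and were prepared with another kit, the peptide genes were near the floor of detection. Npy had 4 counts in all, in 3 libraries, Cartpt 10 counts in 5 libraries and Pomc 49 counts in 17 libraries. Agrp had 2 to 20 counts in each of the 24 libraries, 1.60 CPM over all of them, against 17.3 CPM in the arcuate nucleus. Agrp is also the 1 of the 4 genes whose exons share bases with other genes, and the part of those genes in its nodose counts was not tested.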

How the data were processed

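The authors deposited 1 table of raw counts per gene symbol, with a column for each of 48 libraries. Per the submitters' processing notes, FastQC 0.11.7, Trim Galore 0.6.10, STAR 2.7.10b and mm10 were used; the counting tool, annotation and strand setting are not given in the sources used here. Groups came from the labels, whose design text gives 3 to 4 mice per pool where the protocol gives 3.

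The 24 arcuate libraries (15483922 to 20399718 counts) were fitted with edgeR 4.0.16 (R 4.3.3, limma 3.58.1): filterByExpr, TMM factors, robust quasi-likelihood fit with 8 group means, and 10 contrasts with Benjamini-Hochberg adjustment over 16102 genes at 0.05. log2 CPM used a prior count of 2. Correlations used deviations from group means, permuted within groups, or values with group means left in permuted over all libraries (1e+05 resamples, two-sided; 10000 where a library was left out). The fits were tested on simulated data. Alternatives were DESeq2 1.42.0, RLE factors, no low-count filter, a replicate block, marker scores as covariates and each library left out. A 3-degree-of-freedom interaction test and the exact permutation test of log2 CPM at ZT22 were added after seeing the data.

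The members and lists were chosen with earlier results of these data known. Genes named are the 4 members, list genes past the threshold or with the lowest p, and each member's 5 nearest genes.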

Additional observations from a re-analysis of the deposited data

How the results depend on the processing

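No member passed the threshold in any of 1256 member values over all tests and settings; the lowest adjusted p was 0.0846. Of 160 member values of genotype or light effects under settings other than leaving out a library, 155 kept their sign. The 5 that reversed were, with the arcuate score as a covariate, Npy averaged over times (-0.010), Agrp at ZT10 (-0.044), Npy at ZT10 (-0.12) and Npy at ZT22 (0.029), and with the ventromedial score Cartpt in light against dark (-0.0084). DESeq2 called 23 genes averaged over times, 21 at ZT4, 865 in light against dark, 1117 in the averaged rhythm, 108 in the Control rhythm, 380 in the HepDKO rhythm and 1 in the difference of rhythms, where edgeR called 0, 0, 513, 622, 42, 61 and 0. A fit to only the 6 libraries of ZT10 called 4 genes. The ZT22 balance was 0.78 for Agrp against Pomc alone, a measure that leaves out Npy and Cartpt. The cause of the other moves was not tested.

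Leaving out each library in turn gave 0 to 7 called genes averaged over times, 0 to 3 at ZT4, 0 to 5 at ZT22, 191 to 935 in light against dark, 287 to 1031 in the averaged rhythm, 11 to 117 in Control and 31 to 312 in HepDKO. Correlations ran from 0.61 to 0.81 (Agrp with Npy), 0.16 to 0.68 (Npy with Pomc), 0.23 to 0.61 (Npy with Cartpt) and 0.34 to 0.65 (Pomc with Cartpt). Agrp with Pomc ran from 0.15 to 0.48 and Agrp with Cartpt from 0.08 to 0.54. Genes at an unadjusted p under 0.05 ran from 779 to 3446 at ZT4, 301 to 593 at ZT10, 380 to 669 at ZT16, 485 to 984 at ZT22 and 315 to 735 in the rhythm difference. Of 576 member values of genotype or light effects, 32 changed sign. Genotype effects averaged over times ran from -0.0087 to 0.11 (Agrp), -0.057 to 0.062 (Npy), -0.22 to -0.063 (Pomc) and -0.011 to 0.030 (Cartpt). At ZT4 they ran from -0.16 to 0.29 (Agrp), -0.10 to 0.35 (Npy) and -0.14 to 0.47 (Pomc), and at ZT10 from -0.033 to 0.23 (Agrp) and -0.0015 to 0.31 (Pomc). At ZT16 they ran from -0.25 to 0.11 (Agrp), -0.30 to 0.071 (Npy), -0.39 to 0.048 (Pomc) and -0.033 to 0.073 (Cartpt), and at ZT22 from -0.012 to 0.26 (Agrp), -0.19 to -0.013 (Npy) and -0.83 to -0.45 (Pomc). Light against dark ran from -0.20 (without HepDKO ZT4 replicate 3) to -0.088 (without HepDKO ZT16 replicate 2) for Agrp and from -0.034 to 0.086 for Npy without the same libraries, from 0.034 (without HepDKO ZT4 replicate 3) to 0.18 (without Control ZT16 replicate 1) for Pomc, and from -0.017 to 0.026 for Cartpt, and the size of the rhythm difference of Agrp, which has no sign, from 0.018 to 0.19. A rhythm counts as reversed where its 24-h phase lies over 6 h from that with all libraries, the case for 1 of 384 values. The Lepr call ended with the arcuate score (-0.30, edgeR adjusted p = 0.0514) and the ventromedial score (-0.28, 0.0612) as covariates, where the log2 difference stayed near its -0.29.

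Replicate numbers were not taken as pairs, since the labels give them no shared source and not every same-numbered pair correlated above 0.1. Deviations of same-numbered libraries correlated at -0.13 to 0.16 (median 0.025), and of others at -0.17 to 0.17 (median -0.012). Still, 16 of 24 libraries correlated best with their own number out of 3 possible numbers, a hint of pairing that the labels do not give. With the replicate block, 0 genes were called in the genotype tests, 511 in light against dark, 677 in the averaged rhythm, 41 in Control and 83 in HepDKO, and no member was called.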
